A study of Mus musculus with 6 samples.

Results

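The genes described here carry out fatty acid binding, lipid droplet storage and mitochondrial fatty acid oxidation in mouse cumulus cells, the somatic cells around the oocyte of an antral follicle. The list names 39 genes by function, and 36 of them were measured among 18194 genes in all, while Plin1, Soat1 and Acsl1 were not analysed here. Each gene is represented by its brightest probe set (the array spots that report 1 transcript). Cumulus cells came from wild-type females primed at 21 days of age with 5 IU of eCG (equine chorionic gonadotropin, a driver of follicle growth). In the hCG-6h group, 3 samples were taken 6 h after a further 5 IU of human chorionic gonadotropin (hCG, which sets off ovulation). The hCG-0h group of 3 samples had eCG for 46 h and no hCG. Each sample pooled the cells of 50 cumulus-oocyte complexes, and the ages given for the cells name 23-day mice in both groups. The medium for both groups held milrinone, which keeps oocytes from maturing. Descriptions of hCG-6h samples 2 and 3 speak of 7 h and 8 h, although their titles say 6 h. No label ties a sample to separate animals, so p-values measure the spread between these samples, which may be technical. A later group without hCG was not analysed here, so hCG and the added hours cannot be told apart.

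Fatty acids are poorly soluble, and inside cells they travel on fatty acid-binding proteins (FABPs). Acyl-CoA synthetases activate them, after which they are either esterified and stored in lipid droplets, which perilipins coat and lipases empty, or passed into mitochondria by the carnitine shuttle. There the beta-oxidation spiral shortens them, and electron transfer flavoprotein hands the electrons on to the respiratory chain. Fatty acid oxidation in cumulus-oocyte complexes is known to support resumption of meiosis and oocyte competence in the mouse, and droplets of steroidogenic cells also hold esters of cholesterol.

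Levels are log2 values after robust multi-array averaging (RMA), and a change is the hCG-6h mean minus the hCG-0h mean. A gene was called when limma's adjusted p over all 18194 genes was under 0.05. The arrays had medians of 6.43 to 6.46, and samples correlated at r of 0.986 to 0.988 within groups and 0.942 to 0.943 between them (Pearson, over genes, no independent replicates). The hCG response was present in each library labelled hCG-6h: Has2, the hyaluronan synthase, stood at 11.76, 11.70 and 11.61 in hCG-6h samples 1, 2 and 3, against 8.66, 8.49 and 8.14 in hCG-0h samples 1, 2 and 3. Granulosa markers were bright, with Inha, the inhibin alpha subunit, at 13.36 to 13.42 in hCG-6h and 13.41 to 13.49 in hCG-0h samples. Of 11 granulosa and cumulus markers 7 fell, and their mean level was 9.81 to 10.06 in hCG-6h and 11.33 to 11.42 in hCG-0h samples. Oocyte-defining zona pellucida genes Zp1, Zp2 and Zp3 stayed between 3.56 and 4.95 in the 6 samples, below every array's median, but the mean level of all 12 oocyte markers was 5.59 to 5.68 in hCG-6h and 5.26 to 5.44 in hCG-0h samples, without overlap. Ooep rose among them, and 3 of the 12 (Ooep, Dppa3 and Gdf9) were higher at an unadjusted p under 0.05. None of 7 endothelial and 7 theca and stroma markers was called by limma (2 and 0 higher at an unadjusted p under 0.05), and Alas2, 1 of 2 measured red blood cell markers, fell. The part of these markers in the results was not tested. In such bulk samples fewer cells of a type and less RNA per cell cannot be told apart.

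Of the 36 genes, 10 rose, 7 fell and 19 did not pass, so 47.2% were called. The background was 21.3% of all genes in either direction, 10.8% higher and 10.5% lower, and 31.6% were called when genes with a mean under 6.08 were left out, which removes 1 of the 36, Plin4. Samples of the 2 groups did not overlap in 26 of the 36, against 37.9% of all genes. With hCG-6h sample 1 alone, the one whose description does not name a later time, 5 rose and 1 fell, and that fit holds fewer samples. The median absolute log2 change was 0.48 over the 36 and 0.23 over all genes, and the median signed change was 0.15, against 0.01 over all genes. By role, binding proteins went both ways, and the storage genes that changed, lipases among them, all rose. The 9 enzymes of the beta-oxidation spiral did not pass, and all 3 electron transfer genes fell.

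**Figure D1:**
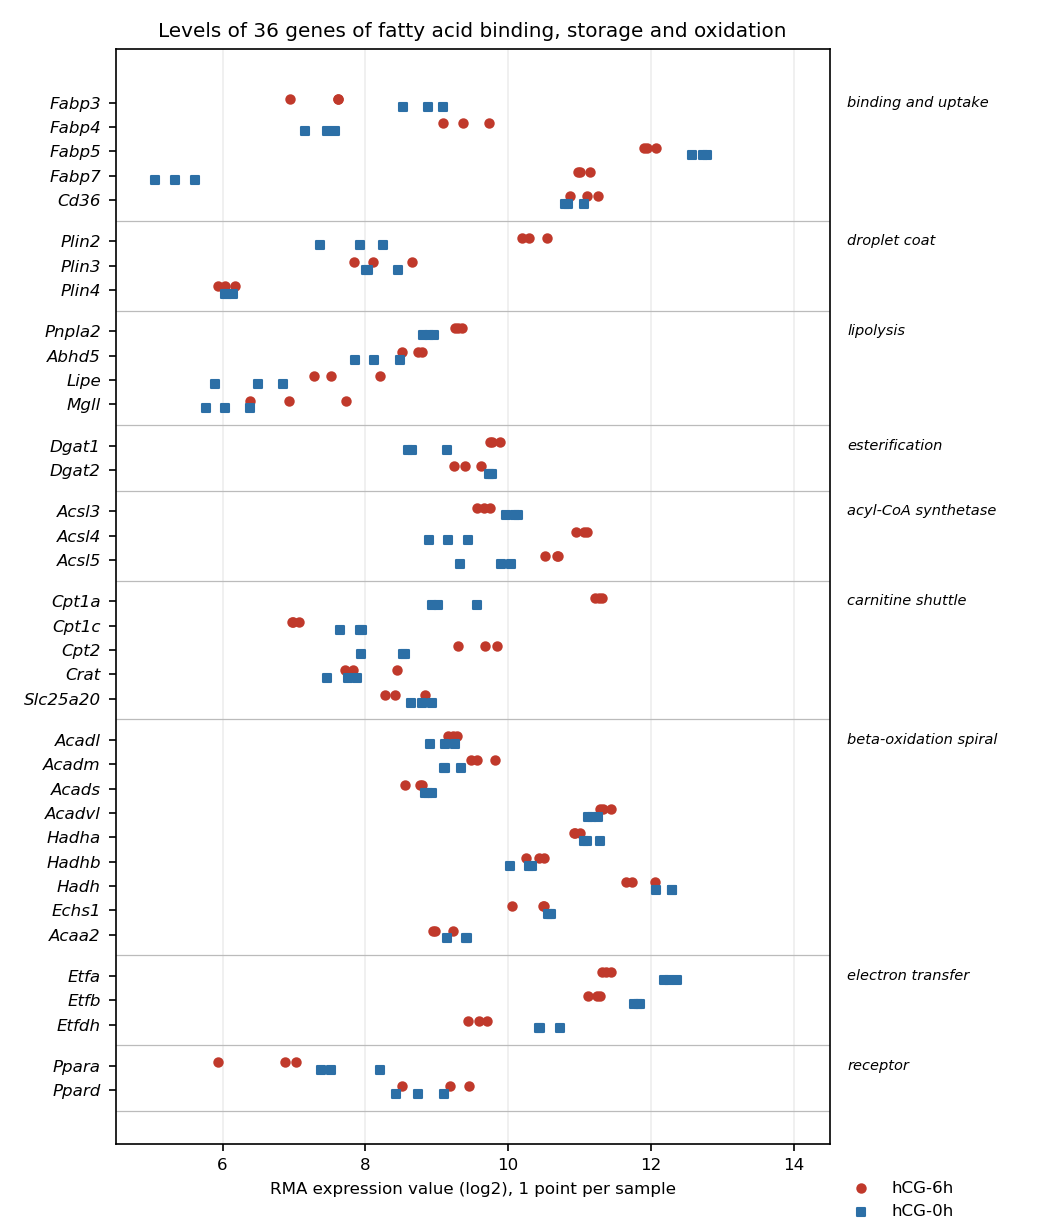
RMA expression values (log2, horizontal axis) of the 36 genes in each sample, by role. Red circles are the 3 hCG-6h samples and blue squares the 3 hCG-0h samples; Fabp7 has the widest gap between groups, and the spiral enzymes lie close together. Values of different genes come from different probes and cannot be ranked against each other.

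Among the 3 genes that rose the most, Fabp7, Plin2 and Cpt1a, the 250 bases before the annotated transcription start are shown, since these starts belong to the largest responses in the list. The sequences are RefSeq's on build GRCm38.p6 and read 5′ to 3′ on the gene's strand. Capitals mark AGGTCA, the core bound by nuclear receptors of the PPAR and NR5A kind, here on the opposite strand as TGACCT.

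Fabp7, chr10:57784673-57784922, plus strand: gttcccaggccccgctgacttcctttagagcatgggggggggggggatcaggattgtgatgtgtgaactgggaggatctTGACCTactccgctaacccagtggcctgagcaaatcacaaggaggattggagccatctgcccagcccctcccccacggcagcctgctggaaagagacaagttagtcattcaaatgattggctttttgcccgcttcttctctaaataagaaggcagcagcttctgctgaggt

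Plin2, chr4:86670060-86670309, minus strand: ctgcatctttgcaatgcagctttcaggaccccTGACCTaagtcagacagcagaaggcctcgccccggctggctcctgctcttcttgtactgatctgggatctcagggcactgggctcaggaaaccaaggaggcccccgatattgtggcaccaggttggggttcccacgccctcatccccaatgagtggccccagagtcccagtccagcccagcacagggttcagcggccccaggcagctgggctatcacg

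Cpt1a, chr19:3323051-3323300, plus strand: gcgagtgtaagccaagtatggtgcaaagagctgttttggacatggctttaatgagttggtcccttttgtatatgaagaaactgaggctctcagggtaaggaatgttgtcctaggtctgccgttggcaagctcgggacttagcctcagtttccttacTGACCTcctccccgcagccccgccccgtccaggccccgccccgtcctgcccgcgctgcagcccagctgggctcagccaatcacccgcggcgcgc

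AGGTCA lay 166 to 171 bases before the start of Fabp7, 213 to 218 bases before that of Plin2 and 89 to 94 bases before that of Cpt1a. On either strand it was found in 14% of 32851 mouse promoter windows of this length. Promoters were at hand for 30 of the 36 genes, and the letters occurred in 3 of 8 that rose, in 1 of 6 that fell (Cpt1c) and in 5 of 16 that did not pass. Neither the cAMP response element, TGACG followed by TCA (1.55% of windows), nor TGACTCA, the AP-1 site (4.46%), nor 2 copies of AGGTCA with 1 base between them (0.0335%), was found in these 30 genes' windows on either strand. A match is a run of letters and not a measured binding site.

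The 4 FABPs split evenly. Fabp7, known as the brain-type FABP, stood at 11.14, 11.01 and 10.98 in hCG-6h samples 1, 2 and 3, against 5.61, 5.34 and 5.05 in hCG-0h samples 1, 2 and 3. It rose 52.3-fold (log2 change 5.71 ± 0.16, SE, adjusted p = 9.92e-06), and every hCG-6h sample lay above every hCG-0h sample. The hCG-0h values of Fabp7 lay below 6.08, the limit set here for the dimmest genes, so its fold is approximate.

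Fabp4, the adipocyte and macrophage FABP, was 9.36, 9.73 and 9.09 in hCG-6h samples 1, 2 and 3 and 7.46, 7.58 and 7.16 in hCG-0h samples 1, 2 and 3. It rose 3.98-fold (log2 change 1.99 ± 0.19, SE, adjusted p = 0.000664), again without overlap. A further probe set of Fabp4 with a mean of 7.46 rose by 2.28, and the other 2 stayed dim, at means of 3.88 and 3.69. Among adipocyte markers, Adipoq, the hormone adiponectin, stood at 3.80 to 4.14 in hCG-6h and 3.87 to 4.02 in hCG-0h samples, and Lep, leptin, at 4.74 to 4.88 and 4.72 to 4.94. The mean level of the 6 measured adipocyte markers was 5.86 to 6.14 in hCG-6h and 5.49 to 5.62 in hCG-0h samples. Only Retn, resistin, was called among them, with a log2 change of 2.01, and its part in the result was not tested. Of 8 macrophage and leukocyte markers none was called higher by limma (1, Ptprc, at an unadjusted p under 0.05) and Fcer1g fell, while Adgre1 lay between 4.11 and 4.38 in all 6 samples. The mean level of 7 endothelial markers was 5.41 to 5.59 in hCG-6h and 5.00 to 5.24 in hCG-0h samples, without overlap. Of these, Cdh5, an endothelial cadherin, had a log2 change of 1.63 (limma adjusted p = 0.053) and Kdr, a VEGF receptor, one of 0.67 (adjusted p = 0.117), while Pecam1 was 5.15 to 5.54 in hCG-6h and 5.39 to 5.63 in hCG-0h samples. The part of endothelial markers in the change of Fabp4 was not tested.

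Fabp3, the heart-type FABP of oxidative tissues, was 6.94, 7.62 and 7.62 in hCG-6h samples 1, 2 and 3, against 8.87, 8.52 and 9.09 in hCG-0h samples 1, 2 and 3. It fell to a level 2.70-fold lower (log2 change -1.43 ± 0.23, SE, adjusted p = 0.00605), with no overlap. A dimmer probe set of Fabp3 did not pass, with a log2 change of -0.21. Fabp5, the epidermal FABP, was 11.90, 12.07 and 11.95 in hCG-6h and 12.57, 12.73 and 12.78 in hCG-0h samples, with no overlap. It fell 1.65-fold (log2 change -0.72 ± 0.11, SE, adjusted p = 0.00437), and its other probe set fell by 1.13 on the log2 scale. Cd36, the membrane receptor that takes up long-chain fatty acids, averaged 11.08 ± 0.20 in hCG-6h and 10.90 ± 0.14 in hCG-0h samples (SD, n = 3 each) and did not pass. Its log2 change of 0.18 had a 95% interval of -0.15 to 0.51.

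Storage genes, here those of droplet coat, lipolysis and esterification, were higher at hCG-6h where they changed. Of 9 measured, 4 rose, or 44.4%, against 10.8% of all genes. They were Plin2, Dgat1 and the lipases Pnpla2 and Lipe, which empty droplets. None fell by limma (1, Dgat2, was lower at an unadjusted p under 0.05), and the median log2 change was 0.53. When hCG-0h sample 3, hCG-6h sample 1 or hCG-6h sample 2 was dropped, 2 rose. Plin2, the perilipin that coats droplets in most cell types, was 10.29, 10.54 and 10.19 in hCG-6h samples 1, 2 and 3, against 8.24, 7.36 and 7.93 in hCG-0h samples 1, 2 and 3. It rose 5.64-fold (log2 change 2.50 ± 0.23, SE, adjusted p = 0.000547) and its groups lay far apart. Plin3, a perilipin that moves from cytosol to new droplets, was 8.11, 8.65 and 7.84 in hCG-6h and 8.46, 8.01 and 8.03 in hCG-0h samples, which overlapped, and its interval of change ran from -0.52 to 0.59. Plin4, an adipocyte perilipin, was dim in both groups, at 6.05 ± 0.12 in hCG-6h and 6.08 ± 0.06 in hCG-0h samples (SD, n = 3 each).

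Triglyceride is broken down in steps, and both lipases of the first steps were called higher, though narrowly. Pnpla2, which encodes the adipose triglyceride lipase ATGL, was 9.35, 9.26 and 9.30 in hCG-6h and 8.89, 8.96 and 8.81 in hCG-0h samples. It was 1.33-fold higher (log2 change 0.42 ± 0.10, SE, adjusted p = 0.0243), without overlap. Lipe, the hormone-sensitive lipase, was 7.52, 8.21 and 7.28 in hCG-6h and 6.84, 6.49 and 5.89 in hCG-0h samples. It was 2.40-fold higher (log2 change 1.26 ± 0.32, SE, adjusted p = 0.0313), and its lowest hCG-6h value stood above its highest hCG-0h value. The Lipe value of hCG-0h sample 3, 5.89, lay below the limit for dim genes, so the fold is approximate. These 2 calls were fragile. Pnpla2 missed the threshold without any 1 of hCG-0h samples 1 and 3 and hCG-6h samples 1, 2 and 3 (adjusted p = 0.0519, 0.0761, 0.0764, 0.0587 and 0.0695). Lipe missed it once any of hCG-0h samples 2 and 3 and hCG-6h samples 1 and 2 was dropped (adjusted p = 0.0741, 0.0797, 0.067 and 0.0711), and its other, dimmer probe set had a log2 change of -0.31.

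Abhd5, the protein that activates ATGL, was 8.51, 8.74 and 8.79 in hCG-6h and 7.85, 8.48 and 8.12 in hCG-0h samples and did not pass (log2 change 0.53, adjusted p = 0.0844). It passed without hCG-0h sample 2 (log2 change 0.70, adjusted p = 0.0331). A dimmer probe set of Abhd5 rose by 0.66 when all probe sets were tested (adjusted p = 0.0335), and its last one, at a mean of 3.15, did not pass. Mgll, the monoglyceride lipase of the last step, was 6.93, 7.73 and 6.38 in hCG-6h and 6.39, 5.77 and 6.03 in hCG-0h samples. Its groups overlapped slightly and the gene did not pass (log2 change 0.95, adjusted p = 0.103), but it passed without hCG-6h sample 3 (log2 change 1.27, adjusted p = 0.0392). Of the 3 other probe sets of Mgll, 2 rose when all 34958 probe sets were tested, with approximate log2 changes of 1.64 and 1.40, since their hCG-0h means of 5.28 and 5.13 lay below the limit for dim genes.

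The last step of triglyceride synthesis can be run by either of a pair of unrelated enzymes. Dgat1 was 9.74, 9.78 and 9.88 in hCG-6h samples 1, 2 and 3, against 8.59, 8.65 and 9.14 in hCG-0h samples 1, 2 and 3. It rose 2.01-fold (log2 change 1.01 ± 0.16, SE, adjusted p = 0.00601), with no overlap between groups, and its other probe set did not pass (log2 change 0.39). Dgat2 was 9.62, 9.39 and 9.24 in hCG-6h and 9.73, 9.78 and 9.74 in hCG-0h samples, did not overlap either, and did not pass (log2 change -0.33, adjusted p = 0.11).

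All 3 measured acyl-CoA synthetases of the long-chain family were called. Acsl4, which prefers arachidonic acid, was 10.95, 11.11 and 11.06 in hCG-6h samples 1, 2 and 3, against 8.89, 9.15 and 9.44 in hCG-0h samples 1, 2 and 3. It rose 3.68-fold (log2 change 1.88 ± 0.16, SE, adjusted p = 0.000342), and its 2 other probe sets rose by 2.41 and 2.22 on the log2 scale. Acsl5, found on mitochondria and endoplasmic reticulum, was 10.70, 10.52 and 10.69 in hCG-6h and 10.04, 9.33 and 9.90 in hCG-0h samples, with no overlap. It rose 1.84-fold (log2 change 0.88 ± 0.19, SE, adjusted p = 0.0202), and the call ended when either hCG-6h sample 1 or sample 3 was dropped (adjusted p = 0.0637 and 0.0649).

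Acsl3, the droplet-associated synthetase, was 9.74, 9.66 and 9.57 in hCG-6h and 9.97, 10.14 and 10.10 in hCG-0h samples, also without overlap. It fell 1.33-fold (log2 change -0.41 ± 0.10, SE, adjusted p = 0.0323). That call ended once hCG-0h sample 2 or 3 was dropped (adjusted p = 0.1 and 0.0908), as it did for hCG-6h samples 1, 2 and 3 (adjusted p = 0.0571, 0.0858 and 0.101).

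**Figure D2:**
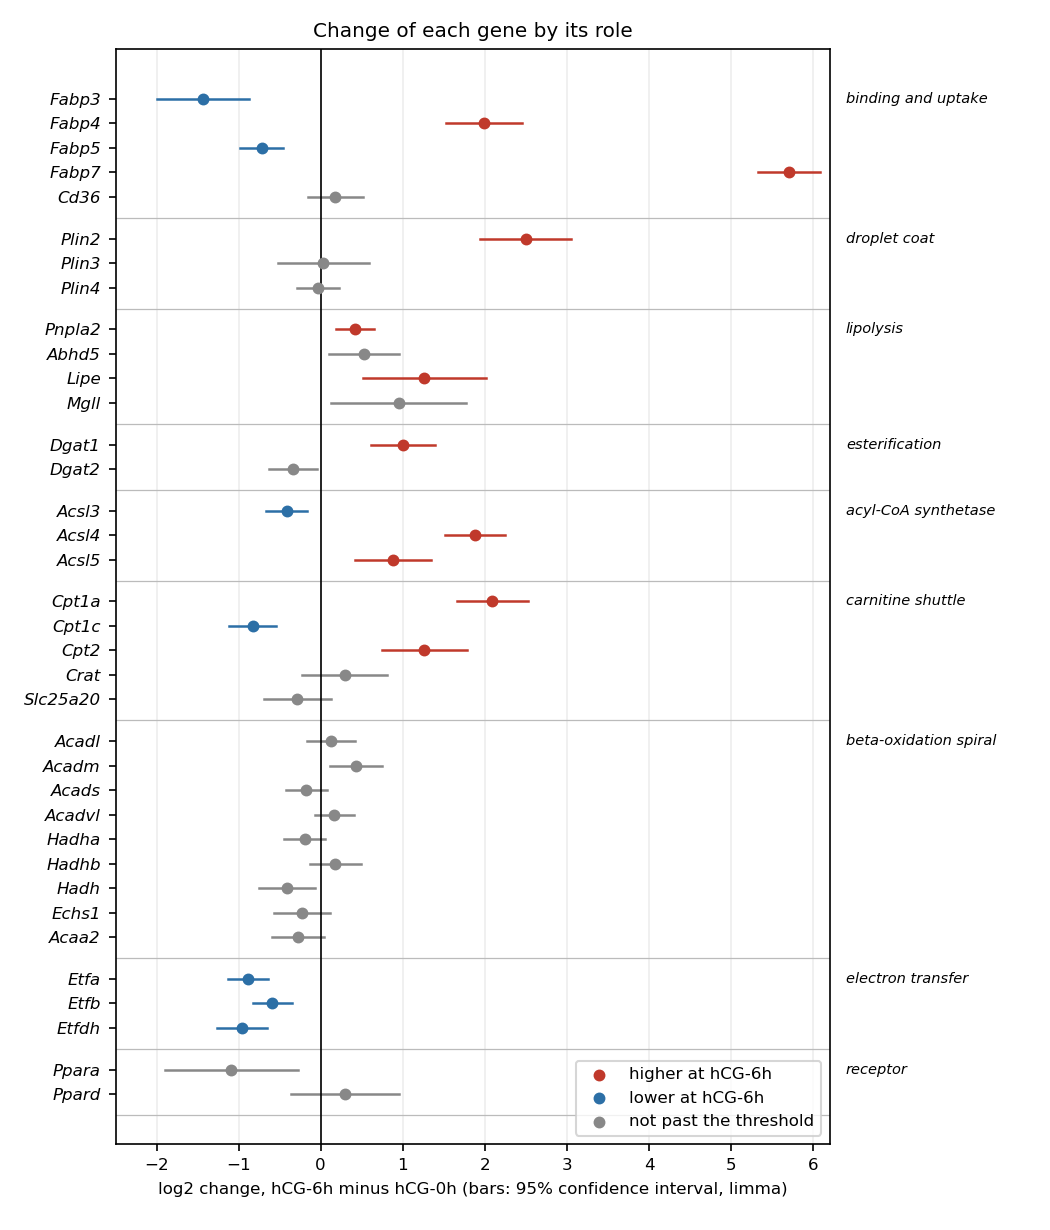
Log2 change (hCG-6h minus hCG-0h, horizontal axis) of each gene with its 95% confidence interval from limma, by role. Red marks genes called higher, blue genes called lower and grey those not past the threshold; the electron transfer genes lie between -0.96 and -0.59, and the spiral enzymes between -0.41 and 0.43.

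Genes of entry into mitochondria were mixed, with 2 of 5 higher and 1 lower. Cpt1a, which makes acylcarnitine at the outer membrane and sets the pace of long-chain oxidation, was 11.21, 11.27 and 11.31 in hCG-6h samples 1, 2 and 3, against 8.93, 9.01 and 9.57 in hCG-0h samples 1, 2 and 3. It rose 4.27-fold (log2 change 2.09 ± 0.18, SE, adjusted p = 4e-04), and both other probe sets rose too, by 2.17 and 2.10. Both others are of a kind that may bind other transcripts too. Cpt2, which turns acylcarnitine back into acyl-CoA inside, was 9.85, 9.30 and 9.67 in hCG-6h and 7.94, 8.53 and 8.56 in hCG-0h samples, with no overlap. It rose 2.40-fold (log2 change 1.26 ± 0.22, SE, adjusted p = 0.00765), while its dimmer probe set did not pass (log2 change 0.47).

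Cpt1c, the neuronal form with little enzymatic activity, was 6.99, 7.07 and 6.97 in hCG-6h and 7.64, 7.95 and 7.93 in hCG-0h samples, so the groups were apart. It fell 1.78-fold (log2 change -0.83 ± 0.12, SE, adjusted p = 0.00369), opposite to Cpt1a. Slc25a20, the carrier that exchanges acylcarnitine for carnitine across the inner membrane, averaged 8.50 ± 0.29 in hCG-6h and 8.79 ± 0.15 in hCG-0h samples (SD, n = 3 each) and did not pass. Its 95% interval of change ran from -0.69 to 0.12. Crat, which works on short acyl groups, averaged 7.99 ± 0.39 in hCG-6h and 7.70 ± 0.22 in hCG-0h samples (SD, n = 3 each) and did not pass either.

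None of the 9 spiral enzymes was called by limma, and 1 was higher and 1 lower at an unadjusted p under 0.05. Their changes ran from -0.41 to 0.43, with a median of -0.17, and the widest 95% interval limits were -0.75 for Hadh and 0.75 for Acadm. The acyl-CoA dehydrogenases of the first step are named for chain length. Acadvl, for very long chains, averaged 11.35 ± 0.08 in hCG-6h and 11.18 ± 0.07 in hCG-0h samples (SD, n = 3 each), with an interval of -0.07 to 0.41. Acadl, for long chains, had an interval of -0.16 to 0.42, and Acads, for short chains, one of -0.43 to 0.08. Acadm, for medium chains, was 9.56, 9.48 and 9.82 in hCG-6h and 9.12, 9.34 and 9.10 in hCG-0h samples. The groups did not overlap in 6 of the 9 spiral enzymes, Acadm among them, against 37.9% of all genes. Acadm came nearest to the threshold (log2 change 0.43, adjusted p = 0.0625).

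Hadha and Hadhb encode the subunits of the trifunctional protein, which runs the later steps for long chains, and their promoter windows overlap head to head on chromosome 5. Hadha averaged 10.95 ± 0.04 in hCG-6h and 11.15 ± 0.12 in hCG-0h samples (SD, n = 3 each). Hadhb averaged 10.39 ± 0.13 in hCG-6h and 10.22 ± 0.17 in hCG-0h samples (SD, n = 3 each). Neither passed, with intervals of -0.45 to 0.05 for Hadha and -0.13 to 0.49 for Hadhb.

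For shorter chains, Echs1 is the hydratase, Hadh the dehydrogenase and Acaa2 the thiolase. Echs1 had a log2 change of -0.23 (interval -0.57 to 0.11) and Acaa2 one of -0.27 (interval -0.59 to 0.04). Hadh was 11.73, 12.06 and 11.65 in hCG-6h and 12.30, 12.07 and 12.30 in hCG-0h samples, nearly touching, and did not pass (log2 change -0.41, adjusted p = 0.0946). It passed without hCG-6h sample 2 (log2 change -0.53, adjusted p = 0.0469). The probe set used for Hadh is of a kind that may bind other transcripts too, as are those used below for Hsd17b10 and Elovl1. Those used for Dgat1, Acsl3, Acaa2 and Angptl4 may also report more than 1 transcript. So may the further probe sets of Acsl4 and Mgll with log2 changes of 2.41 and 1.40. A dimmer probe set of Hadh, at 9.36 in hCG-6h and 10.48 in hCG-0h samples on average, fell by 1.12 when all probe sets were tested (adjusted p = 0.0264).

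The flavoproteins that carry electrons away from the dehydrogenases were all lower. Etfa, the alpha subunit of electron transfer flavoprotein, was 11.44, 11.37 and 11.32 in hCG-6h samples 1, 2 and 3, against 12.25, 12.18 and 12.36 in hCG-0h samples 1, 2 and 3. Etfb, its beta subunit, was 11.29, 11.25 and 11.12 in hCG-6h and 11.82, 11.85 and 11.76 in hCG-0h samples. Etfdh, the oxidoreductase that passes the electrons to ubiquinone, was 9.59, 9.70 and 9.44 in hCG-6h and 10.72, 10.43 and 10.45 in hCG-0h samples. In each gene every hCG-6h value lay below every hCG-0h value. Etfa fell 1.85-fold, Etfb 1.51-fold and Etfdh 1.94-fold (log2 changes -0.89 ± 0.10, -0.59 ± 0.10 and -0.96 ± 0.13, SE, adjusted p = 0.00134, 0.00684 and 0.00267). The 3 calls held whichever single sample was dropped, but not with hCG-6h sample 1 alone (adjusted p = 0.0546, 0.129 and 0.0577). Etfdh has a dim second probe set, at a mean of 5.13, that did not move with the first (log2 change 0.07, SE 0.59).

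Neither nuclear receptor of the list passed. Their relative Pparg, counted with the neighbouring genes, was called lower (log2 change -0.65, limma adjusted p = 0.0138). It averaged 10.67 in hCG-6h and 11.32 in hCG-0h samples. Ppara, the receptor that drives oxidation genes in liver, was 6.87, 5.94 and 7.03 in hCG-6h and 7.52, 8.21 and 7.38 in hCG-0h samples, without overlap (log2 change -1.09 ± 0.34, SE, adjusted p = 0.066). Its 2 other probe sets had log2 changes of -0.33 and -0.40. Ppard, a widely expressed relative, averaged 9.05 ± 0.48 in hCG-6h and 8.75 ± 0.34 in hCG-0h samples (SD, n = 3 each), and its interval ran from -0.37 to 0.95.

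Other probe sets gave a check inside the arrays. Of the 36 genes, 23 had more than 1 probe set, with 37 further probe sets in all. Among 15 of these with a mean level of at least 8, all 15 had the sign of the one used and 13 lay within 0.6 of it on the log2 scale. Among the 22 dimmer ones, 16 had the same sign and 11 lay within 0.6. Called genes had 16 other probe sets, of which 6 passed in the same direction and 0 in the opposite one when all 34958 probe sets were tested (10 did not pass).

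**Figure D3:**
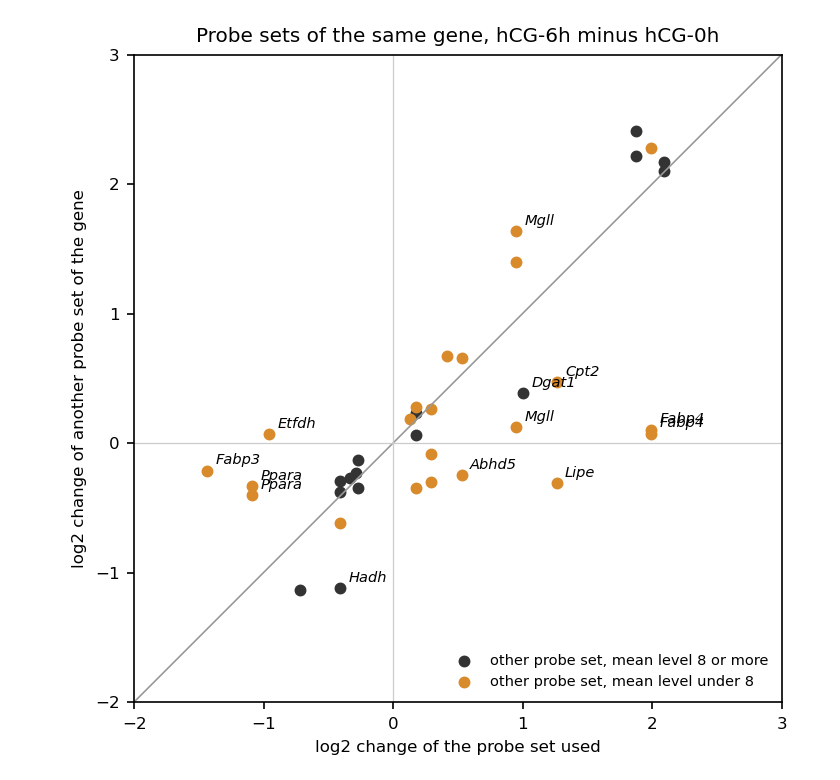
Log2 change (hCG-6h minus hCG-0h) of each further probe set (vertical axis) against the one used for the gene (horizontal axis), with the line of equality; black points have a mean level of at least 8 and orange points a lower one. Points farther than 0.6 from equality carry the gene's name, except that names of points close together may overlap; 13 of 15 black and 11 of 22 orange points lie within 0.6.

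Genes of neighbouring steps, taken from 8 lists drawn up by function, gave 19 that rose and 27 that fell among 112 measured, or 41.1%. The share called in either direction was 21.3% over all genes and 31.6% when the dimmest genes were left out. Of 11 genes of fatty acid import and lipoprotein uptake, 5 rose and 2 fell. Slc27a4, a fatty acid transport protein, rose 3.74-fold (9.34 ± 0.15 in hCG-6h and 7.44 ± 0.12 in hCG-0h samples, SD, n = 3 each). Cav1, caveolin-1, rose 3.12-fold, while Slc27a1, the transport protein of muscle and fat, fell 2.40-fold. Dropping 1 sample at a time left 3 to 5 of the list higher (3 for hCG-0h samples 2 and 3 and hCG-6h samples 1 and 2). It left 1 or 2 lower (1 for every sample but hCG-6h sample 1).

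Glycerolipid synthesis had 4 of 15 higher and 3 lower, or 46.7% called, against 21.3% of all genes and 31.6% without the dimmest genes. Gpat3, a glycerol-3-phosphate acyltransferase of the endoplasmic reticulum, was 10.41, 10.34 and 10.42 in hCG-6h samples 1, 2 and 3, against 5.65, 6.68 and 7.06 in hCG-0h samples 1, 2 and 3. It rose 15.2-fold (log2 change 3.93 ± 0.34, SE, adjusted p = 0.000399), with hCG-0h values near the limit for dim genes. Acss2, which activates acetate, rose 2.28-fold and Lpin2, a phosphatidate phosphatase, fell 1.84-fold. A second probe set of Acss2 did not pass (log2 change 0.76, adjusted p = 0.172), and with hCG-6h sample 1 alone neither Acss2 nor Lpin2 did (adjusted p = 0.0749 and 0.0549). Dropping single samples left 3 or 4 of these higher and 1 to 3 lower (1 for hCG-0h samples 2 and 3 and hCG-6h sample 3). Of 16 other droplet proteins only Hilpda, an inhibitor of ATGL, was called (log2 change 1.09, adjusted p = 0.0262), or 6.25%, against 21.3% of all genes. The call of Hilpda ended once hCG-0h sample 2, hCG-6h sample 1 or hCG-6h sample 3 was dropped (adjusted p = 0.0505, 0.0771 and 0.0826), and 1 other gene was called lower when hCG-6h sample 3 was dropped.

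The list of remaining mitochondrial steps, which also holds enzymes of amino acid breakdown, had 7 of 16 lower and 1 higher. The share called was 50%, against 21.3% of all genes and 31.6% without the dimmest genes, and the median log2 change was -0.55. The genes named here were picked by the size of their change and may not stand for the fatty acid steps. Acat1, the thiolase of ketone and isoleucine metabolism, was 8.48, 9.90 and 9.36 in hCG-6h and 10.77, 11.06 and 10.76 in hCG-0h samples, apart but spread widely. It fell 3.07-fold (log2 change -1.62 ± 0.34, SE, adjusted p = 0.0167), and not without hCG-0h sample 2 (adjusted p = 0.0564). Ivd, the leucine-pathway dehydrogenase that also feeds electron transfer flavoprotein, fell 2.91-fold, and Hsd17b10, a short branched-chain dehydrogenase, fell by 1.28 on the log2 scale. Dropping single samples left 5 to 7 of the 16 lower and 0 or 1 higher (0 for hCG-0h samples 2 and 3 and hCG-6h sample 3).

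Among receptors, coactivators and known PPAR targets, 1 of 13 rose and 4 fell, counts that did not change with any sample left out. The share called was 38.5%, against 21.3% of all genes and 31.6% without the dimmest genes. Pdk4, a kinase that blocks pyruvate oxidation, was 8.00, 7.64 and 7.71 in hCG-6h and 10.37, 10.25 and 10.73 in hCG-0h samples. It fell 6.35-fold (log2 change -2.67 ± 0.17, SE, adjusted p = 0.000117). Angptl4, an inhibitor of lipoprotein lipase, was 10.19, 10.41 and 10.28 in hCG-6h and 7.65, 7.82 and 7.67 in hCG-0h samples. It rose 5.98-fold (log2 change 2.58 ± 0.11, SE, adjusted p = 2.9e-05), so these PPAR targets moved in opposite directions with no overlap of groups. Esrrg, an oestrogen-related receptor, was dim and fell 2.21-fold.

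**Figure D4:**
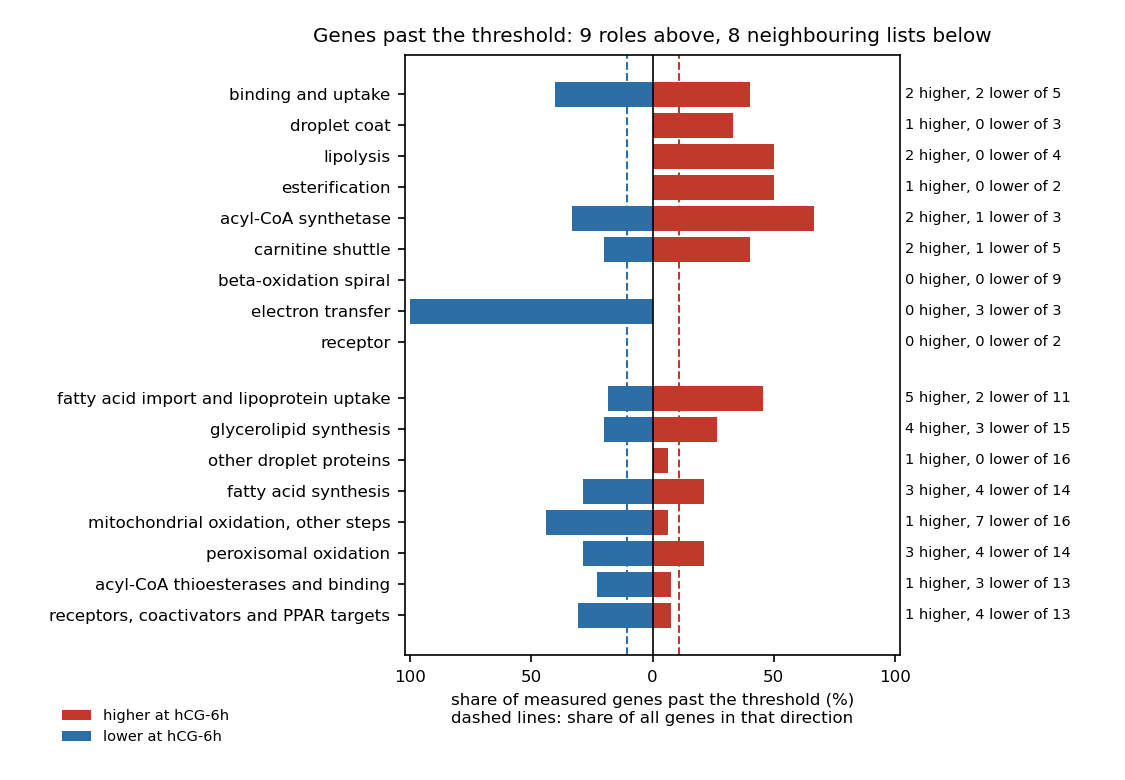
Share of the measured genes (percent, horizontal axis) called higher (red, to the right) and lower (blue, to the left) at hCG-6h for each role in the list and for the neighbouring lists, with counts at the right. Dashed lines mark the shares among all genes, 10.8% higher and 10.5% lower; roles hold as few as 2 genes, so a bar can rest on 1 gene.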

How the data were processed

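Per the labels' protocols, RNA of cumulus cells was amplified, biotin-labelled and put on single-colour arrays, 1 for each sample. The authors deposited log2 expression values of 45101 probe sets, and RMA, Expression Console 1.1 from Affymetrix and GCOS are listed in the submitters' processing notes. RMA removes background, brings arrays to 1 distribution by quantiles and reduces each probe set to a value. No detection calls or batch labels were used here, and the build behind the probe design was not used here. The number of arrays limits the precision.

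Probe sets were named from the platform annotation: 34958 had 1 symbol, 932 several and 9211 were not listed. Entrez identifiers of 99.4% matched the RefSeq gene table. Per gene, the 1-symbol probe set with the highest mean over the 6 samples was used. The groups were compared with limma 3.58.1 in R 4.3.3 (lmFit, eBayes, group as the only term, two-sided, Benjamini-Hochberg adjustment over 18194 genes), a script tested on simulated data. The simulation recovered 8% of log2 changes of 0.5, 54% of those of 1, 76% of those of 2 and 100% of those of 4. It changed 50 genes of each size, far fewer than were called here, and shuffled the spreads between genes. With so few changed genes the adjusted threshold is stricter than in the data. These shares thus do not give the recovery in this comparison. Small changes may still be missed. Means are given with SD and changes with limma's SE or 95% interval. Promoters are RefSeq windows of GRCm38.p6, cut to 250 bases before the start.

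The 36 measured genes, the neighbouring and marker lists and the alternatives were chosen with earlier results of these data known. All members are named, and up to 3 called genes with the largest change of each neighbouring list. Pparg is named in addition, after its values were seen, and its call under the alternatives is not given.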

Additional observations from a re-analysis of the deposited data

How the results depend on the processing

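Of the 17 called genes of the list, 5 (Fabp4, Fabp7, Plin2, Acsl4 and Cpt1a) were called under all 15 alternatives, and of the 19 others 15 were called under none. Fabp7 and Plin2 have 1 probe set, so alternatives that change the probe set left their values as they were. The same holds for Plin3, Plin4, Acadm, Acads, Acadvl, Hadha and Echs1 among those called under none, and Plin4 entered only 14 alternatives. No call changed under array weights, repeated quantile normalisation, centring on array medians or omission of the dimmest genes. RMA had already normalised by quantiles and left medians of 6.43 to 6.46, so repeating it or centring could hardly change a call. Deviations of same-numbered samples correlated at 0.011, -0.016 and 0.029 over genes, so no strong shared shift went with the number. Such correlations cannot show that these samples were handled apart. The replicate block on the number gave 3264 calls over all genes, 9 members higher and 6 lower, in place of 3874, 10 and 7, and ended the calls of Pnpla2, Acsl3 and, among neighbouring genes, Hilpda (adjusted p = 0.072, 0.0888 and 0.0621). A trend and robust variance ended that of Pnpla2 (adjusted p = 0.0549) and added Hadh and Ppara (0.031 and 0.0482). With each gene's second brightest probe set 4 members were lower, 1 of them a binding gene, and 1 oxidation gene was higher. The 13 members with 1 probe set kept it there, so for them this setting was no check by another probe set. Cpt1c, Etfa and Etfb, among the 4 lower, are such genes. Lipe had a log2 change of -0.31 and Etfdh 0.07 under this setting, reversed in sign but not past the threshold. That setting also ended the calls of Fabp3, Pnpla2, Dgat1, Acsl3, Cpt2, Acacb, Acss2 and Acox3 and added Abhd5 and Mgll. The mean of probe sets ended Lipe and Etfdh and added Mgll and Hadh. With hCG-6h sample 1 alone, assumed to vary like hCG-0h, 1577 genes were called, 5 members were higher and 1 was lower, and the counts were 1 lower for binding, 1 higher for storage, and 1 higher and 0 lower for oxidation; fewer samples then enter the fit. Calls that ended there were those of Fabp5, Pnpla2, Lipe, Dgat1, Acsl3, Acsl5, Cpt1c, Cpt2, Etfa, Etfb and Etfdh and, among neighbouring genes, Acot13, Acot1, Cav1, Acacb, Acss2, Lpin2, Hilpda, Acox3, Pex5 and Esrrg. With each sample left out, 2 to 4 storage genes were higher (2 without hCG-0h sample 3 or hCG-6h sample 1 or 2). Beyond the construction named, the cause of each difference was not tested. Dim probe sets or values, close to background, limit the folds of Fabp7, Plin4, Lipe, Mgll, Gpat3 and Esrrg.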

Other observations

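Of 14 measured genes of fatty acid synthesis, 3 rose and 4 fell. The share called was 50%, against 21.3% of all genes and 31.6% without the dimmest genes. Scd1, the stearoyl-CoA desaturase that makes oleate, was 11.20, 11.64 and 11.41 in hCG-6h samples 1, 2 and 3, against 9.15, 9.37 and 9.46 in hCG-0h samples 1, 2 and 3, and rose 4.26-fold (limma adjusted p = 0.000192). Elovl1, an elongase of saturated chains, rose 2.63-fold, and its groups did not overlap. Acacb, which makes the malonyl-CoA that inhibits the CPT1 enzymes, was 7.09, 7.19 and 7.27 in hCG-6h and 8.30, 8.84 and 8.17 in hCG-0h samples and fell 2.38-fold (adjusted p = 0.00409). Its second probe set did not pass (log2 change -0.23, adjusted p = 0.439), nor did Acacb with hCG-6h sample 1 alone (adjusted p = 0.0734). With each sample left out in turn, 3 of the list rose and 4 or 5 fell.

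In peroxisomes, very long chains are shortened before they reach mitochondria. Of 14 measured genes, 3 rose and 4 fell, or 50%, against 21.3% of all genes and 31.6% without the dimmest genes. With each sample left out, 1 to 3 rose and 3 to 5 fell. Only 1 rose once hCG-0h sample 3, hCG-6h sample 1 or hCG-6h sample 3 was dropped. Abcd2, a transporter of very long-chain acyl-CoA into peroxisomes, was 8.48, 8.99 and 8.31 in hCG-6h and 11.05, 11.08 and 11.38 in hCG-0h samples and fell 5.97-fold (adjusted p = 0.000253). Acox3, a peroxisomal acyl-CoA oxidase, fell 2.46-fold, but its second probe set did not pass (log2 change -0.23, adjusted p = 0.198), nor did Acox3 with hCG-6h sample 1 alone (adjusted p = 0.09). Pex5, the import receptor of peroxisomal proteins, was 2.39-fold higher (adjusted p = 0.0223), and missed the threshold when any of those 3 samples was dropped (adjusted p = 0.054, 0.0579 and 0.0727).

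Acyl-CoA thioesterases and binding proteins had 1 of 13 higher and 3 lower, or 30.8% called. That share lay above the 21.3% of all genes but not above the 31.6% found without the dimmest genes. Acot2, a mitochondrial thioesterase, was 10.05, 10.29 and 9.88 in hCG-6h and 11.54, 11.59 and 11.71 in hCG-0h samples and fell 2.91-fold (adjusted p = 0.000408). Its cytosolic relative Acot1 fell 1.75-fold. Acot13 fell 1.94-fold (adjusted p = 0.0156), and not without hCG-0h sample 1 or 2 (adjusted p = 0.053 and 0.0542). The 1 that rose was lost for each of hCG-0h samples 2 and 3 and hCG-6h samples 1 and 2 dropped, and 2 or 3 fell with each sample left out.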
